A study of Homo sapiens with 4 samples.

Results

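The amino acid stress response of a uveal melanoma line, with the cytosolic aminoacyl-tRNA synthetases that belong to it, was compared between parental and resistant cells. The members were matched by Ensembl identifier and symbol, without use of their measured values, to a list of 52 genes. That list was chosen with earlier results of these data known. It holds 8 regulators, 6 stress-induced targets, 19 enzymes of amino acid and one-carbon metabolism and 19 synthetases. Of the 52, 50 were among the 11650 genes measured, and PHGDH and ALDH1L2 were not analysed here. All 50 passed a filter on low values (a 4-library mean no lower than 1 FPKM), BCAT1 and ATF5 only through the resistant group, since their parental means were below 1 FPKM.

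In this response, a shortage of an amino acid leaves tRNA uncharged, which activates the kinase GCN2, and phosphorylation of the translation factor eIF2 then slows most protein synthesis while ATF4 protein is made in larger amounts. ATF4 is controlled mainly at translation, so its mRNA is an incomplete measure of its activity. With C/EBP partners it binds composite elements near genes for amino acid synthesis, amino acid uptake and tRNA charging, and melanoma cells are known to use the programme under nutrient and drug stress.

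RNA sequencing was done on 4 libraries of 92.1, an established uveal melanoma cell line, 2 from parental cells and 2 from cells that the labels call resistant. The agent, its dose and how the resistant cells were derived were not given in the sources used here. All 4 titles name 92.1, although a separate cell line label carries a different number in each library. Separate cultures are not stated for the libraries of a group, so every p-value here reflects only the spread between these 4 libraries, and that spread may be technical. The labelled cell type was checked with 8 pigment cell markers, all of which were measured. PMEL stood at 619.9 and 380.0 FPKM in parental and 394 and 338 FPKM in resistant cells, MLANA at 221 and 211 FPKM in parental and 212 and 207 FPKM in resistant cells and TYR at 121 and 113 FPKM in parental and 177 and 114 FPKM in resistant cells, and all 3 overlapped between groups. TYRP1 was higher in both resistant libraries, at 1490.3 and 1484 FPKM in parental and 2143 and 1514 FPKM in resistant cells. The other 4 were lower in both. MITF stood at 35.3 and 37.4 FPKM in parental and 9.64 and 31.8 FPKM in resistant cells, with the resistant libraries far apart, and SOX10 at 91.8 and 73.3 FPKM in parental and 54.9 and 54.3 FPKM in resistant cells. DCT stood at 4.88 and 5.46 FPKM in parental and 0.486 and 0.517 FPKM in resistant cells, and S100B at 2.26 and 2.76 FPKM in parental and 0.773 and 0.963 FPKM in resistant cells. None of 5 endothelial markers had a value, and neither had the leukocyte marker PTPRC or the epithelial markers EPCAM and CDH1. The 2 of 6 leukocyte markers with a value (CD68 and LCP1) summed to 32.6 and 27.4 FPKM in parental and 13.2 and 10.7 FPKM in resistant cells. The 3 of 6 epithelial markers with one (KRT8, KRT18 and KRT19) summed to 3.12 and 3.91 FPKM in parental and 9.39 and 17.7 FPKM in resistant cells. Of 6 fibroblast markers 3 had a value. LUM overlapped, at 4.45 and 5.16 FPKM in parental and 7.69 and 4.92 FPKM in resistant cells, while COL1A1, at 0.742 and 0.841 FPKM in parental and 1.16 and 1.89 FPKM in resistant cells, and COL1A2, at 0.00848 and 0.00683 FPKM in parental and 0.747 and 0.531 FPKM in resistant cells, were higher in both resistant libraries. For 3 of 5 markers of retinal pigment epithelium the sums were 5.29 and 4.69 FPKM in parental and 4.48 and 3.08 FPKM in resistant cells. These 3 did not share a direction. RLBP1 was lower in both resistant libraries (2.49 and 2.24 FPKM in parental, 0.722 and 0.758 FPKM in resistant cells). TTR was higher in both (0 and 0.035 FPKM in parental, 0.553 and 0.847 FPKM in resistant cells), and BEST1 overlapped. The part of all these markers in the results below was not tested.

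Values are FPKM (fragments scaled to transcript length and to mapped fragments), so levels can be compared between genes per length. They summed to 282602 and 283387 for parental and to 292736 and 293481 for resistant libraries, and the true depth is unknown. The resistant libraries agreed less with each other (r = 0.945 across genes, which are not independent replicates) than the parental libraries (r = 0.971). Resistant replicate 2 stood apart from resistant replicate 1. Its median log2 difference from the parental mean over all 10271 genes tested was -0.16, against -0.01 in resistant replicate 1, and 36 of the 50 members were higher in resistant replicate 1 than in resistant replicate 2 (66.1% of all genes tested).

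The promoters of the members were searched for the core of the C/EBP-ATF composite element, to show which members carry the letters that ATF4 is known to bind. RefSeq promoter windows on GRCh38.p14 (250 bases before to 50 after a transcript start) matched 43 of the 52 members by symbol, with 64 windows in all. ALDH1L2, BCAT2, LARS1, NUPR1, PSPH, PYCR1, SHMT2, VARS1 and YARS1 had no entry. The letters searched were TGATGNAA on both strands, which reads TTNCATCA on the other strand, and no other motif was searched. They were present in 13 of the 64 member windows (20.3%), each in a different gene, and in 3.62% of all 35116 windows of the same length. By gene, 7 of 16 synthetases and 6 of 27 other members held a match, where 1217 of all 27305 symbols did (4.46%). Each match is printed 5′ to 3′ on the strand that reads the searched letters, which are in capitals with 10 bases on either side.
CEBPG: gcgcggcgtcTGATGCAAcctgccggca
ATF3: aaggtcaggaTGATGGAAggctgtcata
CHAC1: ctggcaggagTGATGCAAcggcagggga
ASNS: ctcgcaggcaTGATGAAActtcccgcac
BCAT1: gtcttcctgcTGATGCAAtccgctaggt
GOT1: ctgccgagaaTGATGCAAccaatgcaat
AARS1: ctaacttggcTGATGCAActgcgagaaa
GARS1: gctcggagcaTGATGAAAtcgccgcgta
CARS1: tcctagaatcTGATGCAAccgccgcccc
IARS1: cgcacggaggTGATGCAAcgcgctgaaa
MARS1: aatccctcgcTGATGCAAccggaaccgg
NARS1: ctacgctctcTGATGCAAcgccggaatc
TARS1: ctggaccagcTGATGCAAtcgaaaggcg

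The core read TGATGCAA in 10 of the 13 matches, TGATGAAA in ASNS and GARS1 and TGATGGAA in ATF3. The first base of the match, read along the gene, lay at -42 from the start in CEBPG, at -68 in ASNS, at -48 in BCAT1, at -209 in CHAC1, at -198 in GOT1 and at -191 in ATF3. Among the synthetases it lay at -2 in CARS1, -4 in MARS1, -13 in IARS1 and -33 in GARS1, at 2 in TARS1 and 14 in NARS1 (both inside the transcript), and at -187 in AARS1. On GRCh38.p14 the printed stretches, with the strand they are read on, are CEBPG chr19:33374061-33374088 (plus), ATF3 chr1:212565206-212565233 (plus), CHAC1 chr15:40953252-40953279 (minus), ASNS chr7:97872459-97872486 (minus), BCAT1 chr12:24949132-24949159 (minus), GOT1 chr10:99430805-99430832 (plus) for the regulators, the stress target and the enzymes. For the synthetases they are AARS1 chr16:70289676-70289703 (plus), GARS1 chr7:30594835-30594862 (minus), CARS1 chr11:3057408-3057435 (plus), IARS1 chr9:92293693-92293720 (plus), MARS1 chr12:57488054-57488081 (minus), NARS1 chr18:57621805-57621832 (minus), TARS1 chr5:33440957-33440984 (minus). The match of BCAT1 was in 1 of its 5 windows. Those of ASNS, ATF3, CEBPG, CARS1, GARS1 and TARS1 were each in 1 of 2 windows, and the other matched genes had 1 window each. Gene-level values do not say which start was used. A match describes the letters only, and binding was not measured.

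No member passed the test across all genes. In limma on log2(FPKM + 1), with Benjamini-Hochberg adjustment at 0.05, 0 of 50 members were called, where 0.0584% of all genes tested were called (6 of 10271). BCAT1 came closest (adjusted p = 0.0544), and the other 49 had adjusted p-values from 0.158 (VLDLR) to 0.995 (WARS1). At an unadjusted limma p under 0.05, 3 members were higher in resistant cells (BCAT1, GDF15 and ATF5), where 6.06% of all genes were higher by that rule, and 7 were lower (VLDLR, SHMT1, SARS1, SHMT2, GOT2, AARS1 and GARS1), where 10.2% of all genes were lower. Read against those shares, 3 of 50 is at the background and 7 of 50 a little above it. The balance moved with scaling, to 5 higher and 5 lower members after median-of-ratios scaling, which also moved all genes from 622 higher and 1045 lower to 917 and 880 (858 and 943 after quantile normalization). Leaving out 1 library leaves a group with 1 library, which is then assumed to vary like the other group, and the counts moved for members and for all genes alike. Without parental replicate 1, 3 members were higher and 1 lower (363 and 336 of all genes), and without parental replicate 2, 2 and 2 (332 and 463). Without resistant replicate 1, 1 was higher and 17 lower (1107 and 2528 of all genes), and without resistant replicate 2, 4 and 7 (1031 and 1164).

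In GENCODE release 29 (GRCh38), GDF15 lies on chromosome 19 from 18374731 to 18389176, ATF5 lies on chromosome 19 from 49928702 to 49933935, SHMT1 on chromosome 17 from 18327860 to 18363563, SHMT2 on chromosome 12 from 57229327 to 57234935, GOT2 on chromosome 16 from 58707131 to 58734357. Of the synthetases, SARS1 lies on chromosome 1 from 109213918 to 109238169, AARS1 lies on chromosome 16 from 70252295 to 70289543 and GARS1 on chromosome 7 from 30594681 to 30634033. All values are per gene and refer to no single exon.

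Both resistant libraries lay above both parental libraries for 10 members, where 19.1% of all genes tested did so, and below both for 20 members, where 31.8% of all genes did so. The remaining 20 members overlapped between groups. The higher count is again at the background, and the lower count somewhat above it. The median log2 fold change over the 50 members was -0.13, against -0.08 over all genes tested. The plot of estimates with their intervals shows BCAT1 apart from the other members on the higher side, and SHMT2 and VLDLR at the lower end.

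**Figure D1:**
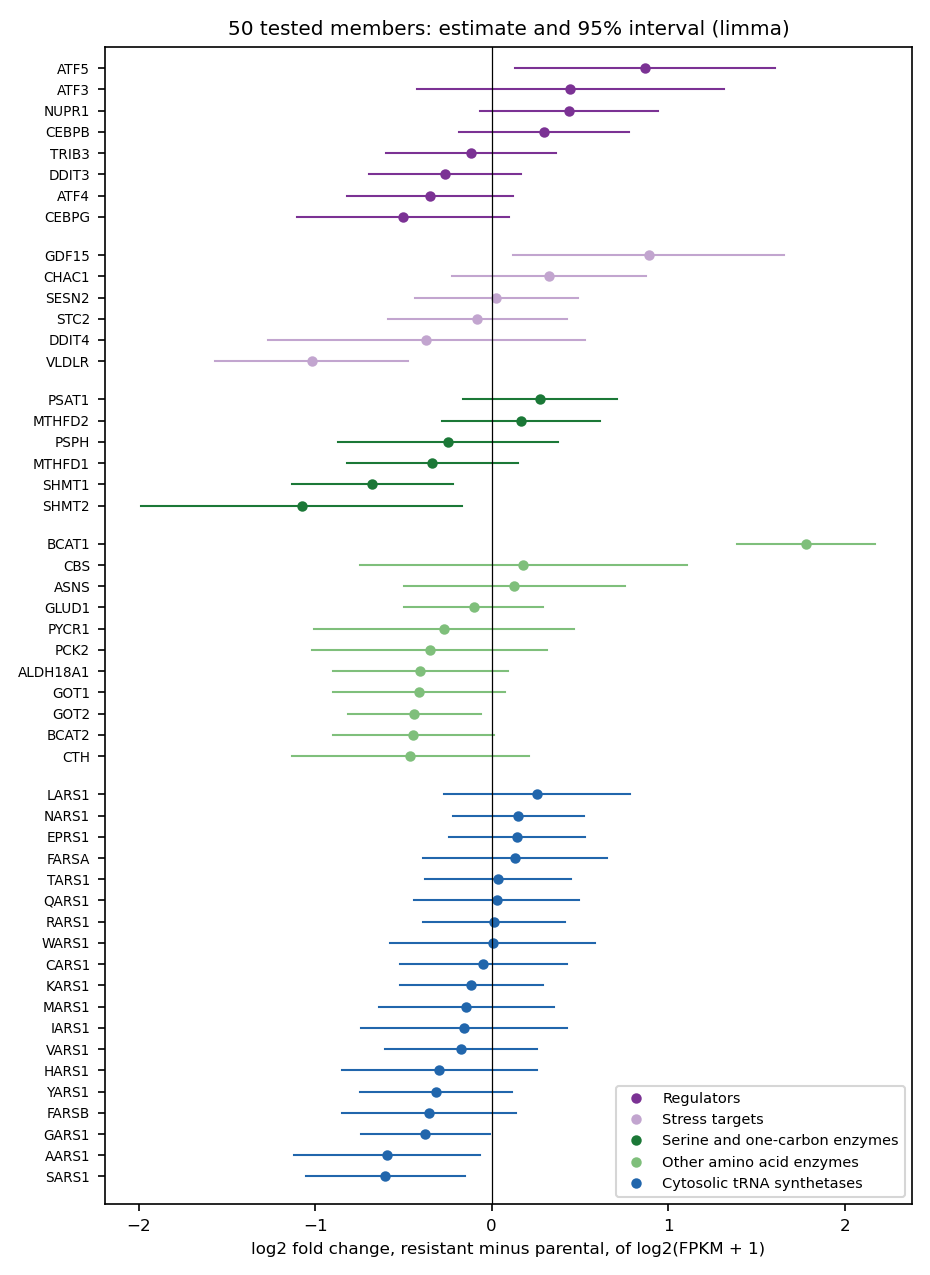
Log2 fold change of each of the 50 tested members (points) with its 95% limma interval (lines), resistant minus parental on the log2(FPKM + 1) scale, grouped and coloured by role. BCAT1 stands at 1.78, SHMT2 and VLDLR near -1.08 and -1.02, and most synthetases within 0.25 of 0.

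Among the 8 regulators, the transcription factor at the head of the response did not stand higher in resistant cells. ATF4 was by far the most abundant, at 120.1 and 107 FPKM in parental and 102 and 77.5 FPKM in resistant cells. Both resistant libraries were below both parental libraries, by a margin smaller than the spread between resistant replicates (log2 fold change -0.35 ± 0.19 SE, limma adjusted p = 0.410). DDIT3, which encodes the stress factor CHOP, stood at 10.3 and 10.8 FPKM in parental and 8.90 and 8.31 FPKM in resistant cells (-0.26 ± 0.17 SE on the log2 scale). CEBPG, a C/EBP partner of ATF4, stood at 9.37 and 9.16 FPKM in parental and 7.73 and 5.02 FPKM in resistant cells (-0.50 ± 0.24 SE). These 3 factors were thus lower in both resistant libraries without passing either threshold. Without resistant replicate 2, ATF4 stood at -0.15 and CEBPG at -0.23.

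ATF5, a relative of ATF4, was the regulator with the largest difference, at 1.43 and 0.411 FPKM in parental and 2.54 and 2.23 FPKM in resistant cells. Resistant libraries were both higher, while the parental libraries differed from each other by more than the resistant libraries did (log2 fold change 0.87 ± 0.29 SE, limma adjusted p = 0.267). The difference missed an unadjusted 0.05 without parental replicate 2, resistant replicate 1 or resistant replicate 2. The estimate was 0.48 without parental replicate 2 and 1.49 with a pseudocount of 0.1. ATF5 had a parental mean below 1 FPKM and passed the filter on low values only through the resistant group. Its exons share 21.2% of their bases with NUP62 on the opposite strand, which stood at 14.8, 12.2, 11.2 and 12.4 FPKM in the same order. Whether counting used strand is not given, so reads of the pair may not have been told apart. NUPR1, a small stress-induced chromatin protein, stood at 4.98 and 4.79 FPKM in parental and 7.92 and 6.14 FPKM in resistant cells (0.44 ± 0.20 SE). CEBPB, another C/EBP factor, stood at 10.5 and 8.93 FPKM in parental and 11.1 and 13.1 FPKM in resistant cells (0.29 ± 0.19 SE). ATF3, an ATF4-induced repressor, overlapped between groups (0.501 and 1.78 FPKM in parental, 2.25 and 1.38 FPKM in resistant cells), as did TRIB3, a pseudokinase that restrains ATF4 (5.05 and 4.07 FPKM in parental, 4.05 and 4.15 FPKM in resistant cells). DDIT3 likewise shares 27.2% of its exon bases with MARS1 on the opposite strand.

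The 6 stress-induced targets went in different directions. GDF15, a secreted stress cytokine, stood at 2.30 and 1.01 FPKM in parental and 4.50 and 3.14 FPKM in resistant cells, higher in both resistant libraries (log2 fold change 0.89 ± 0.30 SE, limma adjusted p = 0.274). Without parental replicate 2 its estimate was 0.53, and it missed the unadjusted threshold there and without either resistant library. VLDLR, a lipoprotein receptor that ATF4 can induce, stood at 17.1 and 18.2 FPKM in parental and 9.75 and 6.87 FPKM in resistant cells. That is a resistant mean of 8.31 ± 2.03 FPKM against a parental mean of 17.7 ± 0.734 FPKM (SD, n = 2 each), 2.12-fold lower (log2 fold change -1.02 ± 0.22 SE, limma adjusted p = 0.158). Its unadjusted p stayed under 0.05 in all 11 alternatives run. VLDLR lies on chromosome 9 from 2621834 to 2660053 (GENCODE release 29, GRCh38).

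The other 4 targets had small or unsteady differences. CHAC1, which degrades glutathione, stood at 3.78 and 2.73 FPKM in parental and 3.88 and 4.76 FPKM in resistant cells (0.33 ± 0.22 SE). SESN2, a leucine sensor that restrains mTORC1, overlapped (2.46 and 1.90 FPKM in parental, 2.21 and 2.24 FPKM in resistant cells), as did the secreted glycoprotein STC2 (1.32 and 1.49 FPKM in parental, 1.61 and 0.973 FPKM in resistant cells). DDIT4, an inhibitor of mTORC1 also known as REDD1, stood at 4.30 and 4.09 FPKM in parental and 1.84 and 4.71 FPKM in resistant cells, so the resistant libraries lay on either side of the parental ones. GDF15 and VLDLR, both described as ATF4 targets, thus stood on opposite sides of 0, with 95% limma intervals of 0.12 to 1.66 and -1.56 to -0.47. These intervals are unadjusted. They belong to the targets with an unadjusted limma p under 0.05, so they leave out 0 by that choice, and neither gene passed adjustment.

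Of the 6 serine and one-carbon enzymes measured, 3 were lower in both resistant libraries, 2 were higher in both and 1 overlapped. Over all genes tested, 31.8% were lower and 19.1% higher in that way, and so few enzymes cannot be told from those shares. The pathway makes serine from a glycolytic intermediate (PHGDH, PSAT1, PSPH), and passes its carbon to folate (SHMT1 in the cytosol, SHMT2 in mitochondria), where MTHFD1 and MTHFD2 process it. Both serine hydroxymethyltransferases were lower in resistant cells. SHMT2 stood at 29.5 and 21.7 FPKM in parental and 16.4 and 7.97 FPKM in resistant cells, 2.10-fold lower in the mean (log2 fold change -1.08 ± 0.36 SE, limma adjusted p = 0.265). Resistant replicate 2 was the lowest of the 4 libraries, and without it the estimate was -0.60 and missed an unadjusted 0.05, as it did without parental replicate 1. SHMT1 stood at 4.30 and 3.69 FPKM in parental and 2.02 and 2.23 FPKM in resistant cells (log2 fold change -0.68 ± 0.18 SE, limma adjusted p = 0.208), with close agreement within each group, and missed the unadjusted threshold without either parental library.

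PSAT1, the aminotransferase of serine synthesis and the most abundant member of the group, stood at 58.1 and 52.5 FPKM in parental and 74.1 and 60.3 FPKM in resistant cells (0.27 ± 0.17 SE on the log2 scale). PSPH, which completes serine synthesis, overlapped between groups (7.55 and 6.15 FPKM in parental, 6.86 and 4.52 FPKM in resistant cells). Near-identical copies of it exist, which makes its level uncertain. MTHFD2, the mitochondrial folate enzyme and a known ATF4 target, stood at 16.9 and 17.7 FPKM in parental and 21.4 and 17.8 FPKM in resistant cells, with resistant replicate 2 just above the higher parental library (0.17 ± 0.18 SE). Its cytosolic counterpart MTHFD1 was lower in both resistant libraries, at 15.0 and 14.3 FPKM in parental and 12.8 and 10.1 FPKM in resistant cells (-0.34 ± 0.19 SE). The ratio of MTHFD2 to MTHFD1 FPKM was therefore 1.13 and 1.24 in parental cells, against 1.67 and 1.77 in resistant cells. The ratio of SHMT1 to SHMT2 overlapped, at 0.146 and 0.170 against 0.123 and 0.280.

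BCAT1, the cytosolic enzyme that transfers nitrogen from branched-chain amino acids to make glutamate, had the largest difference of all members. It stood at 0.241 and 0.292 FPKM in parental and 3.33 and 3.37 FPKM in resistant cells. The means were 0.266 ± 0.0358 and 3.35 ± 0.0284 FPKM (SD, n = 2 each), a 12.6-fold difference with replicates close together in both groups. BCAT1 had a parental mean below 1 FPKM and passed the filter on low values only through the resistant group. Its fold difference, interval and rank thus describe a gene that was kept because it was high there. The log2(FPKM + 1) scale makes differences of low genes smaller, and on it the fold change was 1.78 ± 0.15 SE (95% interval 1.39 to 2.17), rank 10 of 10271 genes by p. The adjusted p of 0.0544 missed the threshold, and over the 10 alternatives that could test it the adjusted p ranged from 0.0587 to 0.133. With a pseudocount of 0.1 the estimate was 3.24, and in the other 9 it lay between 1.75 and 1.83. BCAT1 is among the genes with a matched core in the sequences above, and lies on chromosome 12 from 24810022 to 24949459.

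Its mitochondrial counterpart BCAT2, which carries out the same reaction, was lower in both resistant libraries, at 6.01 and 5.87 FPKM in parental and 4.38 and 3.84 FPKM in resistant cells (log2 fold change -0.44 ± 0.18 SE, limma adjusted p = 0.317). The ratio of BCAT1 to BCAT2 FPKM was 0.0401 and 0.0497 in parental cells, against 0.760 and 0.878 in resistant cells. BCAT2 was the more abundant of the pair in every library.

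**Figure D2:**
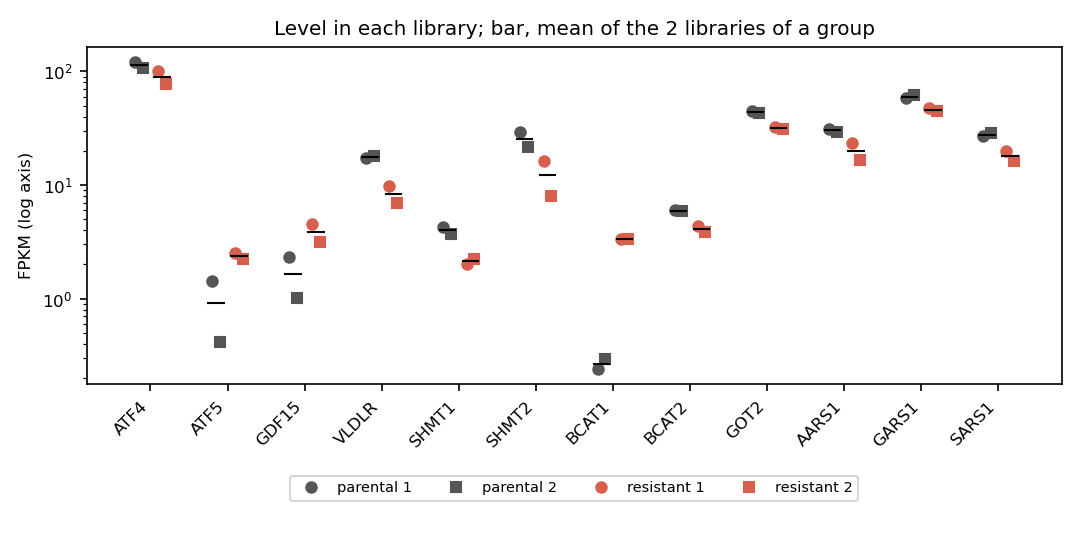
FPKM of 12 members in each of the 4 libraries on a log axis (grey, parental; red, resistant; circles, replicate 1; squares, replicate 2), with a bar at the mean of each group. BCAT1 stands at about 0.266 FPKM in parental and 3.35 FPKM in resistant cells, while the group means of the other 11 members shown differ far less.

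The other 9 amino acid enzymes were mostly at or below the parental level. GOT2, the mitochondrial aspartate aminotransferase, stood at 44.4 and 42.7 FPKM in parental and 32.4 and 31.3 FPKM in resistant cells (log2 fold change -0.44 ± 0.15 SE, limma adjusted p = 0.273), and missed an unadjusted 0.05 without either parental library and after median-of-ratios scaling. With the replicate block GOT2 missed it too. GOT1, its cytosolic partner, stood at 29.7 and 36.9 FPKM in parental and 27.0 and 22.6 FPKM in resistant cells (-0.41 ± 0.19 SE). ALDH18A1, which opens proline synthesis from glutamate, was at 21.1 and 20.5 FPKM in parental and 17.8 and 13.5 FPKM in resistant cells (-0.40 ± 0.20 SE). CTH, which makes cysteine from cystathionine, was at 3.21 and 4.14 FPKM in parental and 3.16 and 1.75 FPKM in resistant cells (-0.46 ± 0.27 SE). All 4 were lower in both resistant libraries. GLUD1, the mitochondrial glutamate dehydrogenase, did not overlap between groups either, but by little (33.4 and 31.9 FPKM in parental, 31.8 and 29.0 FPKM in resistant cells, -0.10 ± 0.16 SE). Its exons share 13.2% of their bases with SHLD2 on the opposite strand, and a close copy, GLUD2, exists. After median-of-ratios scaling its estimate was 4.05e-05.

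ASNS, the asparagine synthetase that is the classical target of the response, overlapped between groups. It stood at 4.87 and 4.55 FPKM in parental and 6.61 and 4.12 FPKM in resistant cells, with resistant replicate 1 the highest and resistant replicate 2 the lowest library (log2 fold change 0.13 ± 0.25 SE, 95% limma interval -0.50 to 0.76). PYCR1, the last enzyme of proline synthesis (19.3 and 11.8 FPKM in parental, 10.5 and 14.5 FPKM in resistant cells), PCK2, the mitochondrial enzyme that draws on oxaloacetate (4.75 and 2.96 FPKM in parental, 3.25 and 2.29 FPKM in resistant cells), and CBS, which forms cystathionine (1.04 and 1.84 FPKM in parental, 0.953 and 2.81 FPKM in resistant cells), overlapped too. CBS has a near-identical copy in GRCh38, so its level is uncertain. Of the 8 mitochondrial enzymes tested, 7 had an estimate below 0 (all but MTHFD2), and of the 9 cytosolic ones 5 did, with medians of -0.38 and -0.25. Over all genes tested 6016 of 10271 had an estimate below 0, with a median of -0.08. So few enzymes cannot be told from that share.

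The 19 cytosolic aminoacyl-tRNA synthetases, which charge tRNA with its amino acid, were abundant and mostly close to the parental level. Their median over the 4 libraries was 22.9 FPKM, against 5.75 FPKM for all genes tested. Their FPKM summed to 463 and 474 in the parental libraries and to 462 and 410.2 in the resistant libraries. The sum in resistant replicate 1 lay just below both parental libraries and that in resistant replicate 2 further below. Of the 19 estimates, 12 lay within 0.25 of 0 on the log2 scale (63.2%), against 50.1% of all genes tested, whose median level was lower. Above 0 lay 8 and below it 11, where 4255 and 6016 of all 10271 genes tested did so. CARS1 crossed 0 after both other scalings.

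The 3 synthetases at an unadjusted p under 0.05 were all lower. SARS1, for serine, stood at 26.8 and 28.7 FPKM in parental and 19.8 and 16.2 FPKM in resistant cells (log2 fold change -0.60 ± 0.18 SE, limma adjusted p = 0.228). AARS1, for alanine, stood at 30.9 and 29.5 FPKM in parental and 23.2 and 16.7 FPKM in resistant cells (log2 fold change -0.59 ± 0.21 SE, limma adjusted p = 0.281), and without resistant replicate 2 its estimate was -0.36. GARS1, for glycine, stood at 58.8 and 61.3 FPKM in parental and 47.3 and 44.9 FPKM in resistant cells (log2 fold change -0.38 ± 0.15 SE, limma adjusted p = 0.305). In each, both resistant libraries were below both parental libraries, and each missed the unadjusted 0.05 without parental replicate 1 and without parental replicate 2. Their estimates then stayed at -0.65 and -0.56 (SARS1), -0.56 and -0.63 (AARS1) and -0.41 and -0.35 (GARS1). GARS1 also missed it under both other scalings, without the variance trend and with the replicate block.

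YARS1 (tyrosine), FARSB (the beta subunit for phenylalanine), HARS1 (histidine) and VARS1 (valine) were also lower in both resistant libraries, with log2 fold changes of -0.32, -0.35, -0.30 and -0.17. NARS1, for asparagine, stood at 60.5 and 55.9 FPKM in parental and 66.8 and 62.7 FPKM in resistant cells, and EPRS1, which charges both glutamate and proline, at 28.7 and 28.2 FPKM in parental and 30.8 and 32.3 FPKM in resistant cells. These were the synthetases with both resistant libraries above both parental ones, with estimates of 0.15 ± 0.15 SE and 0.14 ± 0.15 SE. The remaining 10 overlapped between groups. FARSA, the partner subunit of FARSB, stood at 13.5 and 18.5 FPKM in parental and 17.2 and 17.6 FPKM in resistant cells. Levels of the overlapping synthetases ran from CARS1 (cysteine, 3.24 and 3.81 FPKM in parental, 3.14 and 3.62 FPKM in resistant cells) to TARS1 (threonine, 42.6 and 45.2 FPKM in parental, 48.9 and 41.4 FPKM in resistant cells). Between them lay WARS1, MARS1, QARS1, LARS1, IARS1, RARS1 and KARS1, with log2 fold changes from -0.16 (IARS1) to 0.26 (LARS1).

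Synthetases of the multisynthetase complex, a large particle that holds EPRS1, IARS1, LARS1, MARS1, QARS1, RARS1 and KARS1 among others, were close to the parental level. Over these 7 the median log2 fold change was 0.01, with 4 above 0 and 3 below, none lower in both resistant libraries and 1 (EPRS1) higher in both. Over the 12 members outside the complex the median was -0.24, with 7 lower in both resistant libraries and 1 higher. Over all genes tested the median was -0.08, with 4255 of 10271 above 0 and 6016 below. Of all genes, 31.8% were lower in both resistant libraries and 19.1% higher in both. The difference between these synthetases was not tested.

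The order of levels was largely shared. NARS1 and GARS1 were the most abundant in both groups and changed places. TARS1 and KARS1 came next, at ranks 3 and 4 in both. The lowest 5 (MARS1, YARS1, HARS1, WARS1 and CARS1) kept their order. AARS1 was at rank 5 in parental and rank 10 in resistant cells, and SARS1 at ranks 8 and 11. Neighbours in the middle of the order, such as EPRS1 and RARS1 in parental cells (28.4 ± 0.341 and 28.1 ± 1.51 FPKM, SD, n = 2 each), differed by less than their spread.

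**Figure D3:**
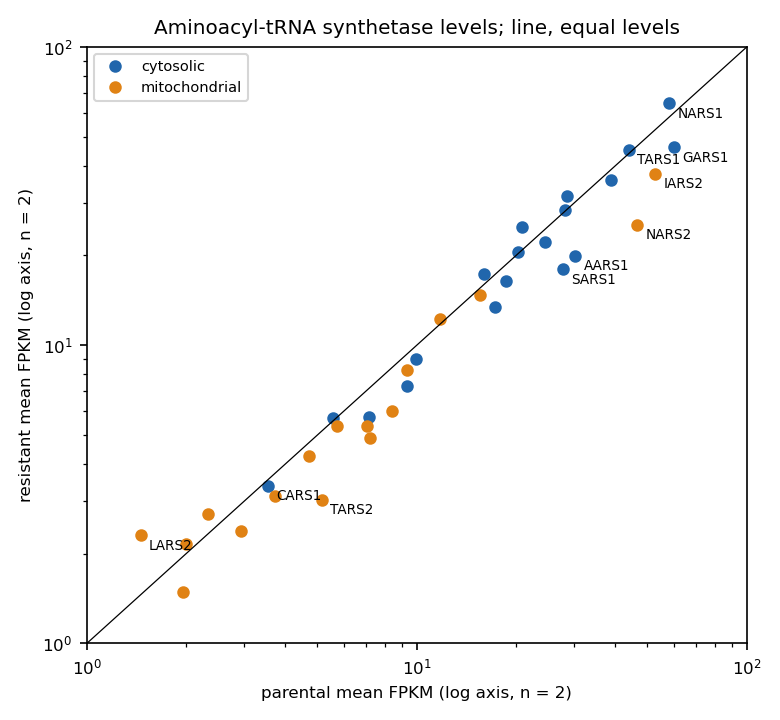
Mean FPKM of each synthetase in the 2 resistant libraries against the 2 parental libraries, both on log axes, for cytosolic (blue) and mitochondrial (orange) enzymes; the line marks equal levels. AARS1, SARS1, NARS2 and TARS2 lie below the line, and NARS1 and TARS1 lie on or just above it.

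Synthetases, enzymes and the regulators with their stress targets were set side by side. The median log2 fold change was -0.11 for the 19 synthetases, -0.34 for the 17 enzymes and -0.03 for the 14 regulators and stress targets, against -0.08 for all genes tested. Both resistant libraries were below both parental libraries for 7 of 19 synthetases, 9 of 17 enzymes and 4 of 14 regulators and stress targets. They were above for 2, 3 and 5. Over all genes tested the shares were 31.8% lower and 19.1% higher. On the lower side the synthetases and the regulators and stress targets were near the background, and 9 of 17 enzymes was above it. On the higher side 5 of 14 regulators and stress targets was above the background, 2 of 19 synthetases below it and 3 of 17 enzymes near it. The 5 include ATF5 and the 3 include BCAT1, which passed the filter on low values only through the resistant group. Such small counts cannot be told from the shares of all genes. The members are not replicates, and the difference between the groups of genes was not tested.

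The enzyme and synthetase medians depended on the library. Relative to the parental mean, resistant replicates 1 and 2 had enzyme medians of -0.18 and -0.50 and synthetase medians of -0.02 and -0.24. The regulators and stress targets stood at 0.07 and 0.08. In both resistant libraries the enzymes were thus lowest in the median and the regulators and stress targets highest. Resistant replicate 2 was low for enzymes and synthetases alike, beside its median of -0.16 over all genes. Leaving out parental replicate 1 put the enzyme median at -0.12, and the synthetase median at -0.14, with all genes at -0.06, so the enzymes were then no further from all genes than the synthetases. The enzyme median was -0.18 without resistant replicate 2 and -0.50 without resistant replicate 1. The synthetase median was -0.02 without resistant replicate 2 and -0.24 without resistant replicate 1, beside medians of all genes of -0.01 and -0.16. Median-of-ratios scaling moved the medians to -0.24 (enzymes), -0.0129 (synthetases) and 0.0370 (regulators and stress targets), beside a median of all genes of 0.00958.

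**Figure D4:**
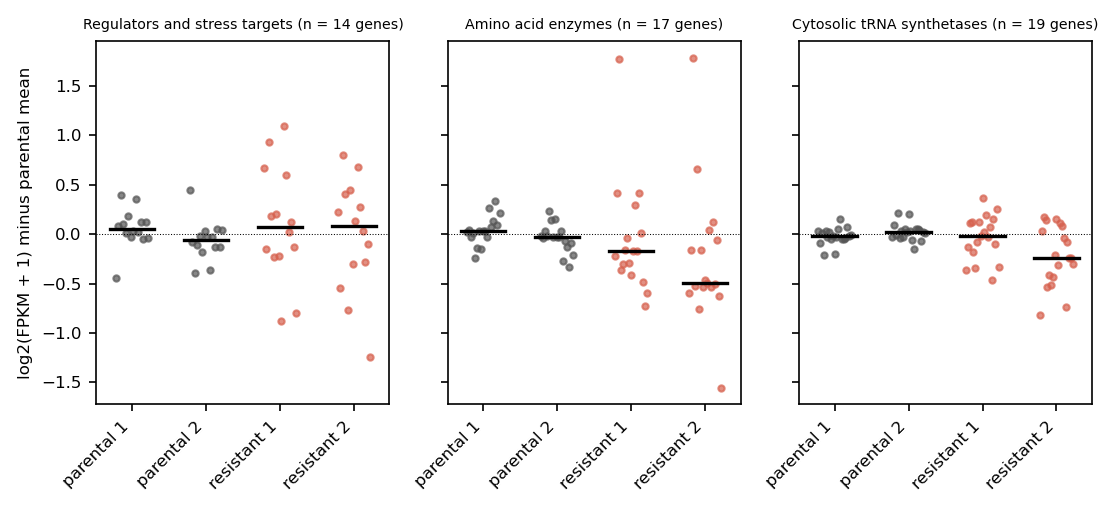
Log2(FPKM + 1) of each tested member minus its parental mean, in each of the 4 libraries, for regulators and stress targets, amino acid enzymes and cytosolic synthetases (points, genes; bars, medians). The enzyme median is -0.18 and -0.50 in the resistant libraries, and the synthetases spread least.

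The 13 members with a matched core did not share a direction. Of these, 6 had an estimate above 0 and 7 below (4255 and 6016 of all 10271 genes tested), with a median of -0.05. BCAT1 with TGATGCAA was the highest of them at 1.78, and AARS1 with the same core letters the lowest at -0.59. ASNS and GARS1, which read TGATGAAA, stood at 0.13 and -0.38. VLDLR and SHMT1, among the lowest members, had a promoter window without the letters, which says only that they are not in that window.

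Genes around the response were read from further lists. A list of 18 genes held the eIF2 kinases, eIF2, its exchange factor eIF2B and the phosphatase subunits, together with GCN1, IMPACT, DELE1 and OMA1. Of these 18, 0 were called in limma over all genes. Their median log2 fold change was -0.13, with 0 higher and 2 lower at an unadjusted limma p under 0.05. That is near the 10.2% of all genes that were lower by this rule. The 2 were the eIF2B subunits EIF2B2, at 8.15 and 6.03 FPKM in parental and 4.52 and 4.56 FPKM in resistant cells, and EIF2B3, at 7.66 and 8.70 FPKM in parental and 5.86 and 4.94 FPKM in resistant cells (log2 fold changes -0.53 ± 0.21 SE and -0.52 ± 0.19 SE, limma adjusted p = 0.305 and 0.286). EIF2B2 stood at -0.34 without parental replicate 1, and kept an unadjusted p under 0.05 in 3 of 11 alternatives. The amino acid sensor kinase GCN2 (EIF2AK4) overlapped, at 4.72 and 5.34 FPKM in parental and 4.39 and 8.78 FPKM in resistant cells, and the feedback subunit PPP1R15A overlapped too (13.4 and 11.3 FPKM in parental, 11.4 and 11.8 FPKM in resistant cells). These 2 genes lay outside the naming rule and were chosen after their values were seen.

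Among 13 tested amino acid transporters of 17 listed, 0 were called, 1 was higher and 2 were lower at an unadjusted limma p under 0.05, where 6.06% and 10.2% of all genes were. SLC7A11, the cystine importer and a target of both ATF4 and NRF2, stood at 0.583 and 0.857 FPKM in parental and 2.30 and 1.62 FPKM in resistant cells (log2 fold change 0.78 ± 0.20 SE, limma adjusted p = 0.194). SLC1A5, a glutamine importer, stood at 54.1 and 46.4 FPKM in parental and 30.0 and 25.8 FPKM in resistant cells (log2 fold change -0.82 ± 0.17 SE, limma adjusted p = 0.158). SLC6A15, a neutral amino acid carrier, stood at 16.8 and 17.8 FPKM in parental and 13.6 and 8.86 FPKM in resistant cells (-0.61 ± 0.24 SE). SLC7A11 had a parental mean below 1 FPKM and passed the filter on low values only through the resistant group. It had an estimate of 1.33 with a pseudocount of 0.1, and SLC6A15 of -0.33 without resistant replicate 2.

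The 17 mitochondrial synthetases listed, which are encoded by separate genes, had a median of -0.21. The list held no separate mitochondrial gene for glycine, lysine or glutamine. With limma 0 of the 17 were called, and by the unadjusted rule 0 were higher and 2 lower, where 10.2% of all genes were lower. NARS2 stood at 47.2 and 46.1 FPKM in parental and 28.4 and 22.4 FPKM in resistant cells (log2 fold change -0.86 ± 0.18 SE, limma adjusted p = 0.158), and TARS2 at 4.96 and 5.34 FPKM in parental and 3.12 and 2.94 FPKM in resistant cells (log2 fold change -0.61 ± 0.18 SE, limma adjusted p = 0.222). The ratio of NARS1 to NARS2 FPKM was 1.28 and 1.21 in parental cells, against 2.35 and 2.81 in resistant cells, and that of TARS1 to TARS2 was 8.60 and 8.46 against 15.7 and 14.1. Across 13 pairs of a cytosolic and a mitochondrial gene for the same amino acid, the mitochondrial estimate was the lower in 7.

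The scaffold proteins AIMP1 and AIMP2 of the synthetase complex overlapped between groups, AIMP1 at 26.8 and 25.4 FPKM in parental, 22.7 and 41.6 FPKM in resistant cells, and AIMP2 at 36.4 and 37.0 FPKM in parental, 41.6 and 29.1 FPKM in resistant cells. Of 11 tested genes of mTORC1 (MTOR and RPTOR) and of amino acid sensing upstream of it, 0 were called and 0 had an unadjusted limma p under 0.05. The Rag GTPases RRAGA and RRAGD were the most abundant, RRAGA at 22.9 and 21.3 FPKM in parental, 24.5 and 18.2 FPKM in resistant cells and RRAGD at 12.0 and 12.1 FPKM in parental, 7.86 and 9.62 FPKM in resistant cells. Of 10 tested genes of the other branches of the unfolded protein response, 0 were called and 0 had an unadjusted limma p under 0.05 (median -0.04). The chaperones HSPA5 and HSP90B1 were the most abundant of them. HSPA5 stood at 173 and 176 FPKM in parental, 161 and 123 FPKM in resistant cells (-0.31 ± 0.17 SE), and HSP90B1 at 241 and 250.3 FPKM in parental, 177 and 276 FPKM in resistant cells (-0.15 ± 0.23 SE).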

How the data were processed

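RNA from 2 parental and 2 resistant libraries of 92.1 was sequenced by the authors. Per the labels' protocols the libraries were stranded (dUTP), after poly(A) selection or ribosomal RNA removal. The deposited values are FPKM per gene, per the file headers. Per the submitters' processing notes the build was hg38. The aligner, the quantifier, its annotation release and whether strand was used in counting were not given in the sources used here. A suffix of annotation mapped between builds is on 11551 of 11650 identifiers. The larger group mean was at least 0.5009 FPKM in every gene, so low genes seem to have been removed before deposit. Low values of genes with 1 transcript showed no common step (at most 5 values in a window of 1% width), so depth stayed unknown.

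Identifiers were matched to current symbols, and 11596 to GENCODE release 29. Values were taken as log2(FPKM + 1). The 10271 genes whose mean reached 1 FPKM were tested two-sided in limma 3.58.1 (R 4.3.3), with a trended variance and Benjamini-Hochberg adjustment over all genes at 0.05. The fit was tested on simulated data. Fold changes are log2 differences of FPKM + 1.

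The members and lists were chosen with earlier results of these data known. The text names all members and, from each further list, genes at an unadjusted p under 0.05 without overlap (up to 3 in each direction) or else the 2 most abundant. A further gene of that rule is not reported here. Alternatives were another pseudocount (0.1), filter (none, or 5 FPKM), scaling (median-of-ratios, quantile), variance model, a replicate block and leaving out each library.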

Additional observations from a re-analysis of the deposited data

How the results depend on the processing

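No member passed the adjusted limma threshold in any of the 11 alternatives. Depth is unknown, so low members such as BCAT1, ATF5 and CBS are the least certain. Of 677 recomputed estimates of the named genes, 645 kept their direction and 32 turned, in 21 genes whose estimate was at most 0.369 in size. After median-of-ratios scaling CARS1 stood at 0.036, GLUD1 at 4.05e-05, AIMP2 at 0.025 and RRAGA at 0.036, and after quantile normalization CARS1 at 0.026 and RRAGA at 0.023. Leaving out each library in turn gave these log2 ranges: AIMP1 -0.19 to 0.65, AIMP2 -0.33 to 0.17, ASNS -0.16 to 0.41, CARS1 -0.14 to 0.0447, CBS -0.30 to 0.66, DDIT4 -0.87 to 0.14, FARSA -0.0830 to 0.35, HSP90B1 -0.47 to 0.16, IARS1 -0.43 to 0.12, MARS1 -0.31 to 0.0201, PSPH -0.50 to 0.00895, PYCR1 -0.60 to 0.0584, QARS1 -0.12 to 0.18, RARS1 -0.0435 to 0.0729, RRAGA -0.27 to 0.14, SESN2 -0.10 to 0.15, STC2 -0.28 to 0.12, TARS1 -0.0802 to 0.15, TRIB3 -0.25 to 0.00792, WARS1 -0.24 to 0.25.

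Without resistant replicate 2, estimates of several genes lower in both resistant libraries were closer to 0 by over 1.5 times, beyond those given above. These included ALDH18A1 (-0.22), CTH (-0.16), MTHFD1 (-0.18), FARSB (-0.18), HARS1 (-0.0805), GLUD1 (-0.0388) and HSPA5 (-0.12). Leaving out each library in turn gave 0 to 30 genes called in all (30 without either parental library, 1 without resistant replicate 1, 0 without resistant replicate 2), 1 to 4 members higher and 1 to 17 lower at an unadjusted limma p under 0.05. Medians then ran from -0.24 to -0.0172 (synthetases), -0.50 to -0.12 (enzymes) and -0.0656 to 0.0844 (regulators and stress targets). At a mean of at least 5 FPKM, 36 members were tested, 0 were higher, since BCAT1, GDF15 and ATF5 were not tested, and the median of the regulators and stress targets was -0.31 over the 6 still tested (ATF4, DDIT3, CEBPB, CEBPG, NUPR1 and VLDLR). After median-of-ratios scaling 5 members were higher and that median was 0.037. The labels number the replicates alike in both groups, but same-numbered libraries did not deviate together (r = -0.071 across genes), so they were not taken as pairs. With the replicate block limma called 4 genes higher and 1 lower, and 3 members were higher and 5 lower, with GARS1 and GOT2 no longer under an unadjusted 0.05.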
